A study of Mus musculus with 12 samples.

Results

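The interferon-inducible GTPases of the guanylate-binding protein (GBP) and immunity-related GTPase (IRG) families were followed through 12 RNA-seq libraries of L929 cells. A set of 10 genes was listed by symbol, the GBP genes Gbp2, Gbp3, Gbp5, Gbp7 and Gbp9 and the IRG genes Igtp, Irgm1, Irgm2, Iigp1 and Tgtp2, and 9 of the 10 were found among the 17571 genes of the expression table through their Entrez identifiers. The expression of Gbp5 was not analysed here, which left 4 GBP and 5 IRG members with values. L929 is a mouse fibroblast line, so the libraries of a group come from 1 line and p-values measure only the spread between these samples, which may be technical. The cells were pretreated for 1 h with DMSO or with 0.5 µM BX795, an inhibitor of the kinase TBK1, were then left alone or transfected with the plasmid pEGFP-N1, which encodes enhanced green fluorescent protein under a viral promoter, and were collected after 6 h. The 4 groups, each of 3 libraries, were mock (the DMSO vehicle without plasmid), pEGFP-N1 (DMSO with plasmid), BX795 (inhibitor without plasmid) and BX795 plus pEGFP-N1. Whether the cells without plasmid received the transfection reagent is not given in the sources used here. The question for these genes was how high each family stood before transfection and how far it moved with the plasmid at 6 h, with and without the inhibitor.

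Cytosolic DNA is sensed by cGAS, which acts through STING and TBK1 on the transcription factor IRF3 and so on interferon beta. Interferon then acts through its receptor, and through STAT2 with IRF9, on interferon-stimulated genes, among them the GBP and IRG genes. GBPs are large GTPases that assemble on bacteria and on the vacuoles of intracellular pathogens, and several are anchored to membranes by a lipid on their C terminus. IRGs are smaller GTPases of the same defence. The regulatory IRGs Irgm1, Irgm2 and Igtp (also called Irgm3) sit on the cell's own membranes and hold the effector IRGs inactive there, whereas the effectors Iigp1 (Irga6) and Tgtp2 (Irgb6) load onto pathogen vacuoles and disrupt them.

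The members lie in clusters of related genes, so their start regions are shown first, as the stretches where factors of the interferon response are known to bind. In the GRCm38 annotation, Gbp7, Gbp3, Gbp2b and Gbp2 lay in 1 run at chr3:142530336-142638008. Irgm1 and Tgtp2 lay at chr11:48865245-49096987, Igtp and Irgm2 at chr11:58183843-58222783, and Gbp9 on chromosome 5. RefSeq windows from 250 bases before to 50 bases after the annotated start (build GRCm38.p6) were matched by symbol for 8 of the 10 members, Gbp5 included. Each of these 8 members held the core of the interferon-stimulated response element (ISRE), searched as GAAANNGAAA on either strand, in at least 1 window. Gbp3 had 2 windows, and its matches lay in the first only. Among all 32851 windows read, 3.44% held the core. The gamma-activated site (GAS), searched as TTCNNNGAA, was found in 5 of the 8 members (Gbp5, Gbp7, Tgtp2, Igtp and Irgm2) and in 8.30% of all windows. These matches are descriptions of letters, not of bound sites. The stretches around them are given on the strand of the gene, 5′ to 3′, with the matches in capitals, for the 7 measured members and for Gbp2b, a neighbour whose values resembled those of Gbp2.
Irgm1, chr11:48871428-48871457, minus strand: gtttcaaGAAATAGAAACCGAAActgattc
Igtp, chr11:58199499-58199543, plus strand: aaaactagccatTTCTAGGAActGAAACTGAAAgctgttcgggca
Irgm2, chr11:58214890-58214934, plus strand: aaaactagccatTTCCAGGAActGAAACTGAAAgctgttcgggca
Tgtp2, chr11:49064261-49064305, minus strand: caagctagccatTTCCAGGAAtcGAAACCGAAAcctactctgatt
Gbp7, chr3:142530218-142530304, plus strand: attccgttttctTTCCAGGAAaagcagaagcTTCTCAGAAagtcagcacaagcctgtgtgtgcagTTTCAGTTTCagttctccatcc
Gbp3, chr3:142559992-142560021, plus strand: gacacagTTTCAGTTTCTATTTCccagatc
Gbp2, chr3:142620594-142620623, plus strand: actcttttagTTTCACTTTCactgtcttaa
Gbp2b, chr3:142594698-142594731, plus strand: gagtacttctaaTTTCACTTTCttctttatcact
In Igtp, Irgm2 and Tgtp2 a GAS match stood directly before the ISRE core in the same order and spacing. The windows of Gbp2, Gbp2b and Irgm1 and the first window of Gbp3 held the ISRE core without a GAS match. In Gbp3 and Irgm1 a pair of overlapping ISRE matches formed 1 longer run.

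**Figure D1:**
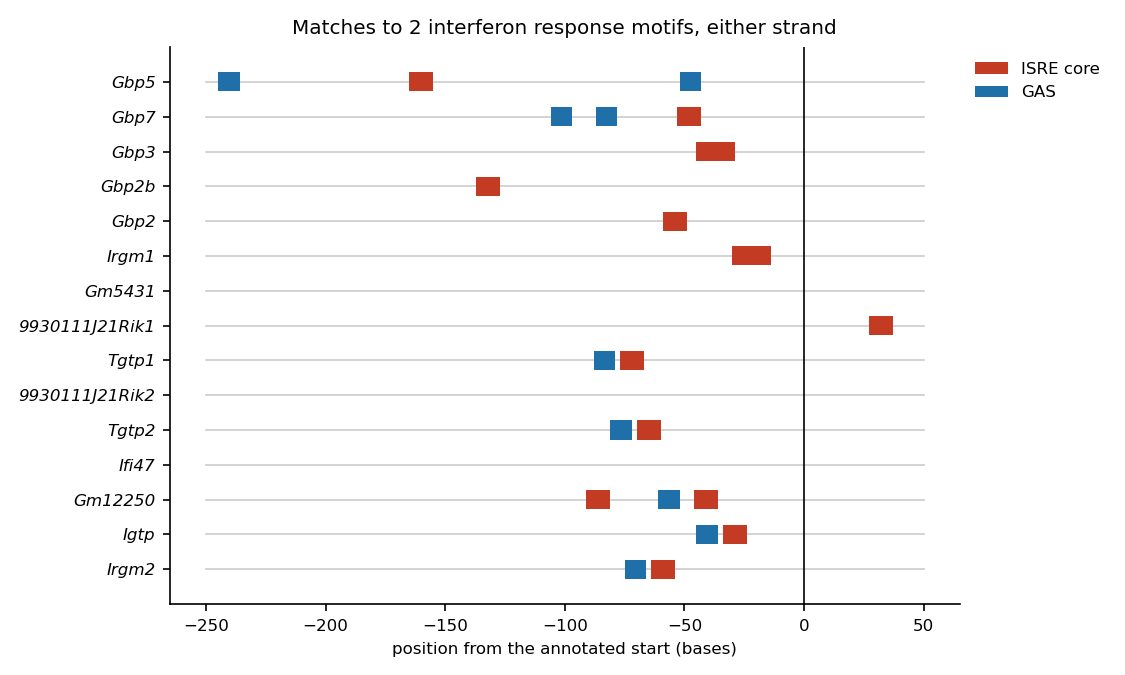
Positions of matches to the ISRE core (red) and GAS (blue) on either strand in the promoter window of each GBP or IRG gene that had one, in bases from the annotated start (vertical line). All 8 members with a window have at least 1 red block, and Igtp, Irgm2, Tgtp1 and Tgtp2 have a blue block directly before the red one.

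Expression was given as FPKM (fragments per kilobase of transcript, scaled to the mapped total). The files hold no read totals, and depth is unknown for all 12 libraries. FPKM is scaled to transcript length, so levels may be compared between genes. In 5 of the 12 libraries the nearest library over the 10412 tested genes carried another label. The library labelled pEGFP-N1 replicate 2 lay nearest to BX795 replicate 2, at a root mean square difference of 0.142 on the log2(FPKM + 1) scale, against 0.420 to the nearest library of its own label. The library labelled BX795 plus pEGFP-N1 replicate 1 lay nearest to pEGFP-N1 replicate 3 (0.139, against 0.345). BX795 replicate 1 and BX795 plus pEGFP-N1 replicate 2 lay nearest to each other. BX795 plus pEGFP-N1 replicate 3 stood apart, at 0.293 from its nearest library and 0.316 from the nearest of its label, where every other library had one within 0.142. Both libraries were kept under their labels, and results are given with and without them. Whether these labels were exchanged was not tested, and every group mean, error and call rests on the labels as given. Since they were singled out on the expression of these samples, values without them are descriptions. Of the fibroblast markers, Vim was at 1576 to 2101 FPKM and Col1a1 at 48.1 to 78.4 FPKM, while Thy1 and Dcn were at or under 0.13 FPKM. Of 8 macrophage markers only Cd68 exceeded 1.25 FPKM (111 to 138), the defining markers Ptprc, Adgre1 and Csf1r were at or under 0.07 FPKM, and all measured lymphocyte, epithelial and endothelial markers were at or under 0.44 FPKM.

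Before transfection the GBP members were nearly silent and the IRG members ranged from silent to moderate. In the 3 mock libraries the median over the 4 GBP members was 0.0533 ± 0.0104 FPKM (mean ± SD, n = 3), and over the 5 IRG members 0.433 ± 0.0808 FPKM. The IRG median was above the GBP median in each mock library. Irgm1 was the highest member at 4.58 ± 0.350 FPKM, with 53.0% of all genes below it, and was the only member above 1 FPKM. The median over all genes of the mean FPKM in mock was 3.37, and 57.7% of genes were at 1 FPKM or more. Iigp1 followed at 0.757 ± 0.141 FPKM, then Irgm2 at 0.410 ± 0.0755 and Igtp at 0.407 ± 0.0702, which did not differ beyond their spread. The GBP members came next, Gbp2 at 0.0867 ± 0.0351, Gbp3 at 0.0733 ± 0.0289 and Gbp9 at 0.05 ± 0.0557 FPKM, whose ranges overlapped. Tgtp2 at 0.0200 ± 0.0346 and Gbp7 at 0.0133 ± 0.0058 FPKM were lowest, so 1 IRG member stood among or below the GBP members. The number of members and the single line limit this order to a description.

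**Figure D2:**
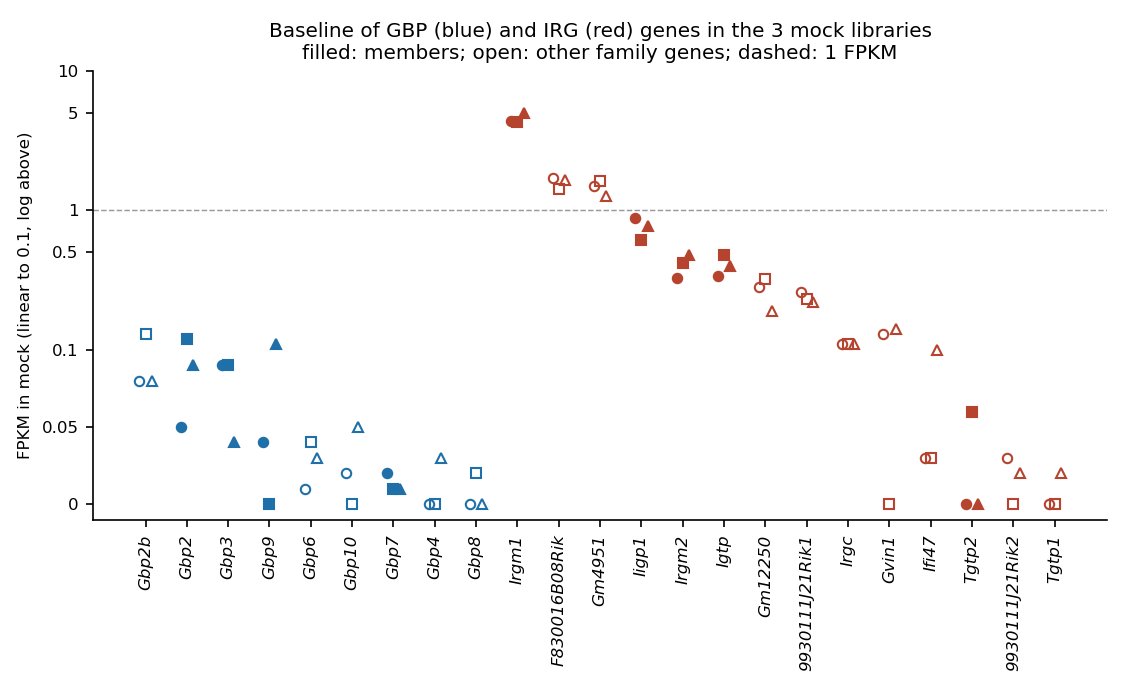
FPKM in the 3 mock libraries (vertical axis, linear to 0.1 and log above) of each measured GBP gene (blue) and IRG gene (red), with filled symbols for the members, open symbols for other family genes and 1 symbol shape per replicate. All GBP genes lie below 0.15 FPKM, and Irgm1 lies above 4 FPKM in each library.

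The regulatory IRGs were high in the same 3 libraries, pEGFP-N1 replicates 1 and 3 and BX795 plus pEGFP-N1 replicate 1, and lower in mock. Values of a group are given for replicates 1, 2 and 3 in that order. Irgm1 measured 4.40, 4.35 and 4.98 FPKM in mock, 26.18, 5.78 and 23.51 FPKM after plasmid alone, 5.78, 5.10 and 4.99 FPKM under BX795, and 25.67, 5.22 and 6.67 FPKM in cells given inhibitor and plasmid. The 3 high libraries thus stood 5.14 to 5.72 times over the mean of mock, and the other 6 libraries outside mock at 1.09 to 1.46 times. The pEGFP-N1 libraries did not overlap with mock, although pEGFP-N1 replicate 2 was far nearer to mock than to its own group. Irgm2 measured 0.33, 0.42 and 0.48 FPKM in mock, 2.66, 0.37 and 2.54 FPKM after plasmid alone, 0.44, 0.37 and 0.44 FPKM under BX795, and 2.41, 0.32 and 0.37 FPKM in cells given inhibitor and plasmid. Its 3 high libraries were 5.88 to 6.49 times the mock mean, and pEGFP-N1 replicate 2 lay inside the mock range. Igtp measured 0.34, 0.48 and 0.40 FPKM in mock, 2.60, 0.52 and 1.76 FPKM after plasmid alone, 0.51, 0.41 and 0.24 FPKM under BX795, and 2.27, 0.40 and 0.40 FPKM in cells given inhibitor and plasmid. Its high libraries were 4.33 to 6.39 times the mock mean, and the pEGFP-N1 group stood just above mock through 0.52 against 0.48 FPKM. Igtp and Irgm2 overlap in the annotation and share 15.9% of the 31-base words of Igtp transcripts, so part of their reads may have been split between them by the authors' estimate. In these bulk samples more cells with the transcript and more transcript per cell cannot be told apart.

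Of the effector IRGs, Iigp1 had another pattern and Tgtp2 was near the limit of the table. Iigp1, on chromosome 18, measured 0.89, 0.61 and 0.77 FPKM in mock, 2.05, 0.23 and 1.40 FPKM after plasmid alone, 0.18, 0.17 and 0.26 FPKM under BX795, and 2.05, 0.16 and 0.26 FPKM in cells given inhibitor and plasmid. It was above mock in the same 3 libraries as the regulators, by 1.85 to 2.71 times, and below every mock library in the other 6, at 0.211 to 0.344 times the mock mean. Tgtp2 was listed at 0 in 8 of the 12 libraries and reached 0.20 FPKM in pEGFP-N1 replicate 3 and 0.30 FPKM in BX795 plus pEGFP-N1 replicate 1. The transcripts of Tgtp2 share 90.5% of their 31-base words with other genes, 89.2% with Tgtp1, so the division of reads between Tgtp1 and Tgtp2 is uncertain. Tgtp1 was at 0.40 and 0.20 FPKM in pEGFP-N1 replicates 1 and 3, at 0.10 FPKM in BX795 plus pEGFP-N1 replicate 1, and at or under 0.02 FPKM elsewhere. Summed, Tgtp1 and Tgtp2 stood at 0.40 FPKM in each of the 3 libraries where the regulators were high and at or under 0.06 FPKM in the other 9.

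Among the GBP members, Gbp3, which lies in the chromosome 3 cluster that mice need to resist Toxoplasma, spanned the widest range. It measured 0.09, 0.09 and 0.04 FPKM in mock, 5.86, 0.20 and 4.75 FPKM after plasmid alone, 0.38, 0.15 and 0.18 FPKM under BX795, and 5.05, 0.33 and 0.26 FPKM in cells given inhibitor and plasmid. The same 3 libraries were high, 64.8 to 79.9 times the mock mean, and the other 6 were 2.05 to 5.18 times it, all above the highest mock library. These ratios rest on a mock mean of 0.0733 FPKM in values rounded to 2 decimals. Gbp7, a GBP of the same cluster that takes part in control of intracellular bacteria, was at 0.57, 0.45 and 0.62 FPKM in the 3 high libraries and at or under 0.05 FPKM in the other 9. Gbp9 of the chromosome 5 cluster was at 0.28, 0.32 and 0.43 FPKM in them and at or under 0.11 FPKM elsewhere.

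Gbp2, whose protein carries the C-terminal lipid signal, had another pattern. It measured 0.05, 0.12 and 0.09 FPKM in mock, 1.0, 0.45 and 0.72 FPKM after plasmid alone, 0.85, 0.79 and 0.75 FPKM under BX795, and 0.90, 0.91 and 0.80 FPKM in cells given inhibitor and plasmid. Each of the 9 libraries outside mock was above each mock library, by 5.19 to 11.5 times the mock mean, and BX795 replicates stood as high as those with plasmid. Its neighbour Gbp2b, the gene for the protein called GBP1 in mice, was also above mock in all 9: it measured 0.08, 0.13 and 0.08 FPKM in mock, 0.81, 0.56 and 1.11 FPKM after plasmid alone, 0.45, 0.53 and 0.68 FPKM under BX795, and 0.93, 0.94 and 0.57 FPKM in cells given inhibitor and plasmid. In Gbp2b the BX795 replicates 1 and 2 lay below all 6 libraries with plasmid. Gbp2 and Gbp2b share 4.85% or less of their 31-base words with other genes. All these values stayed at or under 1.11 FPKM.

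**Figure D3:**
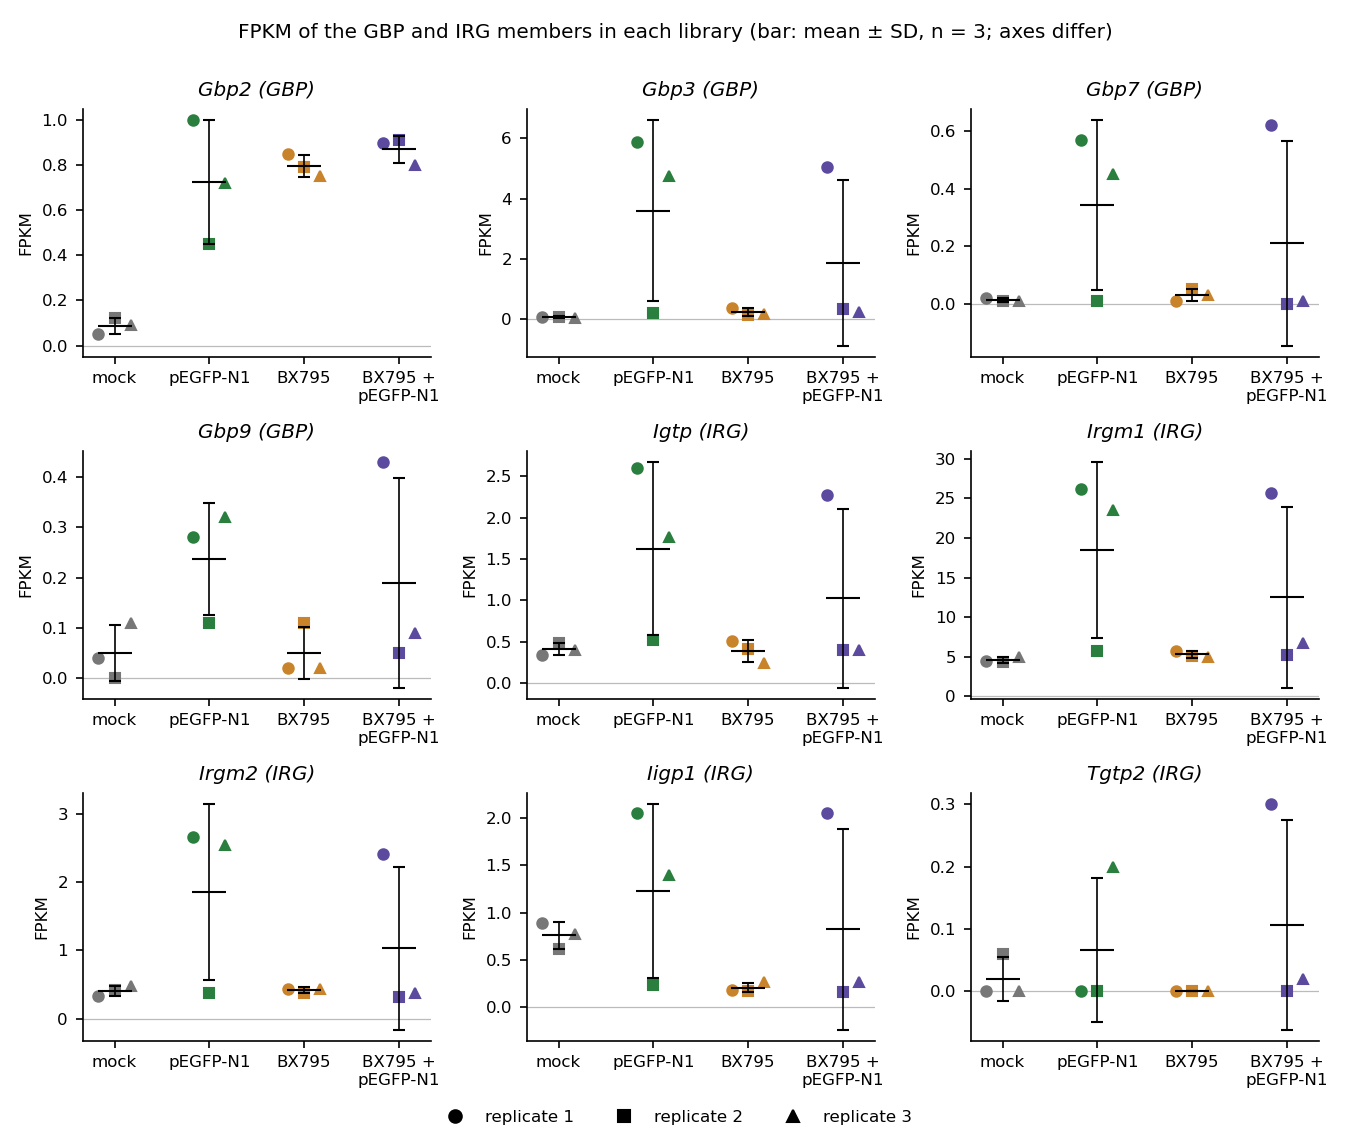
FPKM (vertical axes, which differ between panels) of the 9 measured members in each library, by group, with 1 symbol shape per replicate and bars for the mean ± SD (n = 3). Gbp3, Gbp7, Igtp, Irgm1 and Irgm2 are high in pEGFP-N1 replicates 1 and 3 and in BX795 plus pEGFP-N1 replicate 1, whereas Gbp2 is above mock in all 9 other libraries and Iigp1 is below mock in 6 of them.

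Counted by library, all 9 members were above the highest mock value in pEGFP-N1 replicate 3 and in BX795 plus pEGFP-N1 replicate 1, and 8 of 9 in pEGFP-N1 replicate 1, where Tgtp2 was listed at 0. Over all genes, 25.3% to 26.4% were above the highest mock value in these 3 libraries. In each of the other 6 libraries 3 or 4 of the 9 members were above it, against 31.6% to 38.1% of all genes.

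The remaining genes of the families followed the same patterns in part. Of 16 further GBP and IRG genes, 14 were in the table. Gbp6, at 0.95, 0.73 and 0.71 FPKM, and Gbp10, at 0.87, 0.65 and 0.94 FPKM, were high in the same 3 libraries as Gbp3 and at or under 0.12 FPKM elsewhere. Gbp10 shares 80.8% of its 31-base words with Gbp6, so their division is uncertain. Gbp4 reached 0.14, 0.28 and 0.17 FPKM there and Gbp8 stayed at or under 0.07 FPKM everywhere. Gm4951, an IRG gene on chromosome 18 like Iigp1, followed Iigp1: it measured 1.51, 1.63 and 1.28 FPKM in mock, 2.71, 0.43 and 2.80 FPKM after plasmid alone, 0.61, 0.57 and 0.62 FPKM under BX795, and 3.07, 0.45 and 0.84 FPKM in cells given inhibitor and plasmid. Gm4951 and Iigp1 share 10.4% of the words of Gm4951. F830016B08Rik, between them on the same chromosome, did not follow: it stayed between 1.36 and 2.02 FPKM in all libraries. Ifi47 stayed at or under 0.20 FPKM, Gm12250 between 0.19 and 0.49, 9930111J21Rik1 between 0.22 and 0.48, 9930111J21Rik2 at or under 0.05, Irgc at or under 0.14 and Gvin1 at or under 0.39 FPKM.

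**Figure D4:**
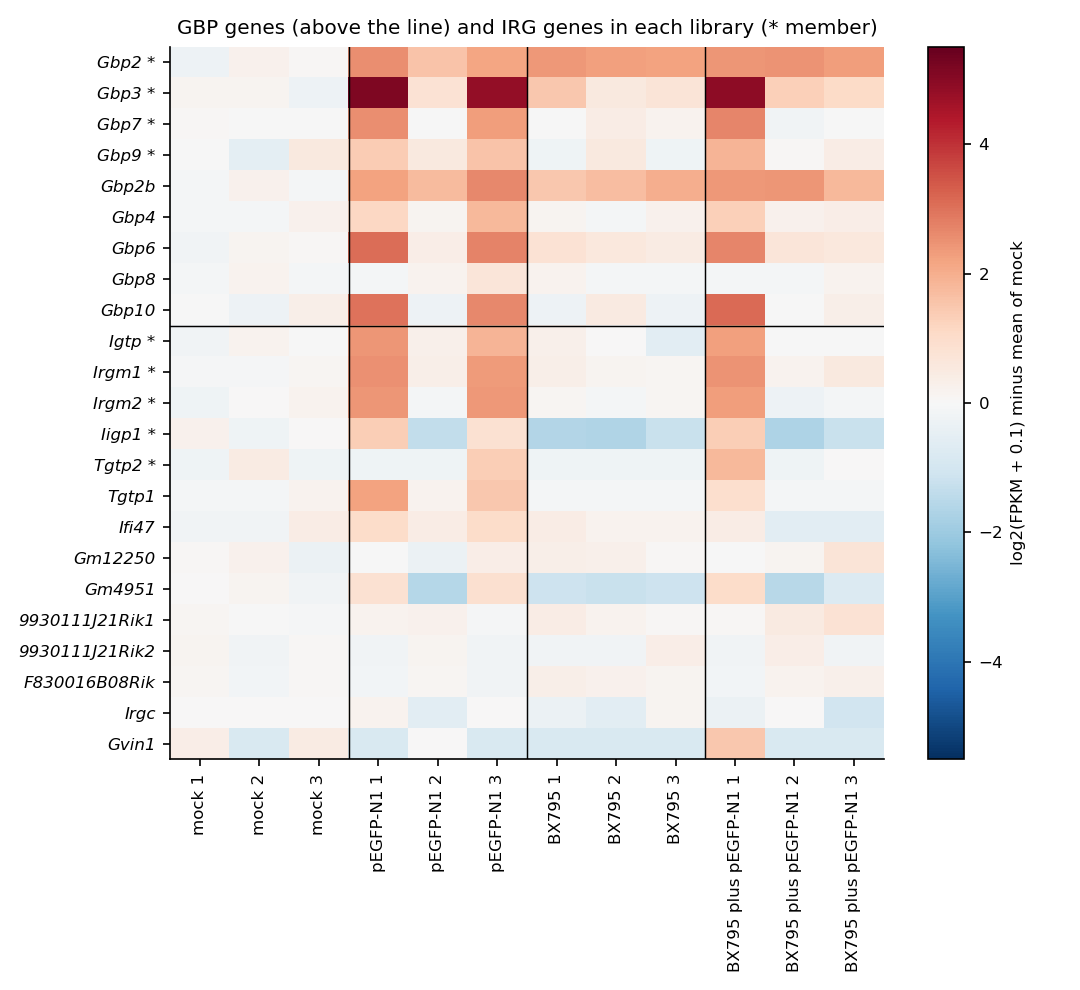
Difference of log2(FPKM + 0.1) from the mean of mock (colour) for each measured GBP gene (above the line) and IRG gene (below it) in the 12 libraries, with members marked by asterisks. Gbp3, Gbp6, Gbp7, Gbp10, Igtp, Irgm1 and Irgm2 have their reddest cells in the same 3 libraries, Gbp3 is paler red in the other 6 outside mock, Gbp2 and Gbp2b are red in all 9 outside mock, and Iigp1 and Gm4951 are blue in 6.

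The plasmid comparison, pEGFP-N1 against mock, was tested with limma on log2(FPKM + 1) over the 10412 genes with at least 1 FPKM in at least 3 libraries, with Benjamini-Hochberg adjustment over all of them. Only 5 members passed that filter, Gbp3, Igtp, Irgm1, Irgm2 and Iigp1, and all but Irgm1 passed through exactly their 3 high libraries, so these had to differ between libraries, and no count over the 5 is independent of the high libraries. None of the 5 was called at an adjusted p under 0.05, and 0.0672% of all tested genes were. At an unadjusted p under 0.05, 4 of the 5 were higher and so were 2.57% of all tested genes, but 3 of the 4 had entered through libraries of which 2 were pEGFP-N1, so nothing is read from this count. Gbp3 was higher by 1.75 on the log2 scale (SE 0.648, limma adjusted p = 0.897), Irgm1 by 1.57 (SE 0.545, adjusted p = 0.859), Irgm2 by 0.89 (SE 0.389, adjusted p = 1.0) and Igtp by 0.81 (SE 0.338, adjusted p = 0.984), whereas Iigp1 differed by 0.25 (SE 0.362, adjusted p = 1.0). By size alone Gbp3 and Irgm1 ranked 21 and 22 among the 10412 genes, Irgm2 63, Igtp 71 and Iigp1 356. All of these but Irgm1 had passed the filter through libraries of which 2 were pEGFP-N1, so nothing is read from their ranks. Fold changes on this scale understate the change of low genes. In exact permutation tests of single members (two-sided, 3 libraries against 3, smallest possible p = 0.1), Gbp2, Gbp3, Igtp and Irgm1 had p = 0.1, since their groups did not overlap. Non-overlapping and higher values were found in 4 of the 9 members and in 4.63% of all 17571 genes.

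These tests changed when 1 or both of the libraries nearest to another label were left out. Without pEGFP-N1 replicate 2, the log2 difference was 2.55 for Gbp3, 2.21 for Irgm1, 1.35 for Irgm2 and 1.17 for Igtp. No p is given for them, since the library was left out on its expression and Gbp3, Irgm2 and Igtp had passed the filter through the libraries that remained. Of the 5, 0 were called, and 0.163% of all genes were. The unadjusted p of these 4 was under 0.05, as for 5.67% of all genes in that direction, with the same limit on the count. When BX795 plus pEGFP-N1 replicate 1 was left out as well, the 5 tested members were all called higher in pEGFP-N1 and 3.76% of all genes were called in either direction. That fit keeps as pEGFP-N1 only 2 of the 3 libraries through which 4 of the members passed the filter, so its calls restate the choice of libraries and are given with no p. Gbp2 was under the filter, and in a fit without any filter it was higher by 0.65 (SE 0.0928, limma adjusted p = 0.0800), where 0.0114% of 17571 genes were called. With a pseudocount of 0.1 in that fit, Gbp2 was called, higher by 2.10 (SE 0.252, adjusted p = 0.0169), and 0.0455% of genes were.

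Whether GBP or IRG members moved further depended on the pseudocount, which weighs the low GBP values. The median difference between pEGFP-N1 and mock was 0.52 over the 4 GBP members and 0.81 over the 5 IRG members on the log2(FPKM + 1) scale, with a median of -0.0026 over all tested genes. With a pseudocount of 0.1 the order was the opposite, 1.85 for GBP and 1.54 for IRG, and with 0.01 it was 2.93 and 1.71. Without pEGFP-N1 replicate 2 the medians were 0.67 and 1.17, and with the smaller pseudocounts 2.39 and 2.15, then 3.86 and 2.38. After rescaling to TPM, with a pseudocount of 1, they were 0.84 and 1.09. In plain FPKM the 4 GBP members summed to 0.20 to 0.25 FPKM in mock and to 6.24 to 7.71 FPKM in the 3 high libraries, and the 5 IRG members to 5.92 to 6.63 and 29.4 to 33.5 FPKM. In the 3 high libraries Irgm1 made up most of the IRG sum and Gbp3 most of the GBP sum. No call was therefore made that either family responded more.

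**Figure D5:**
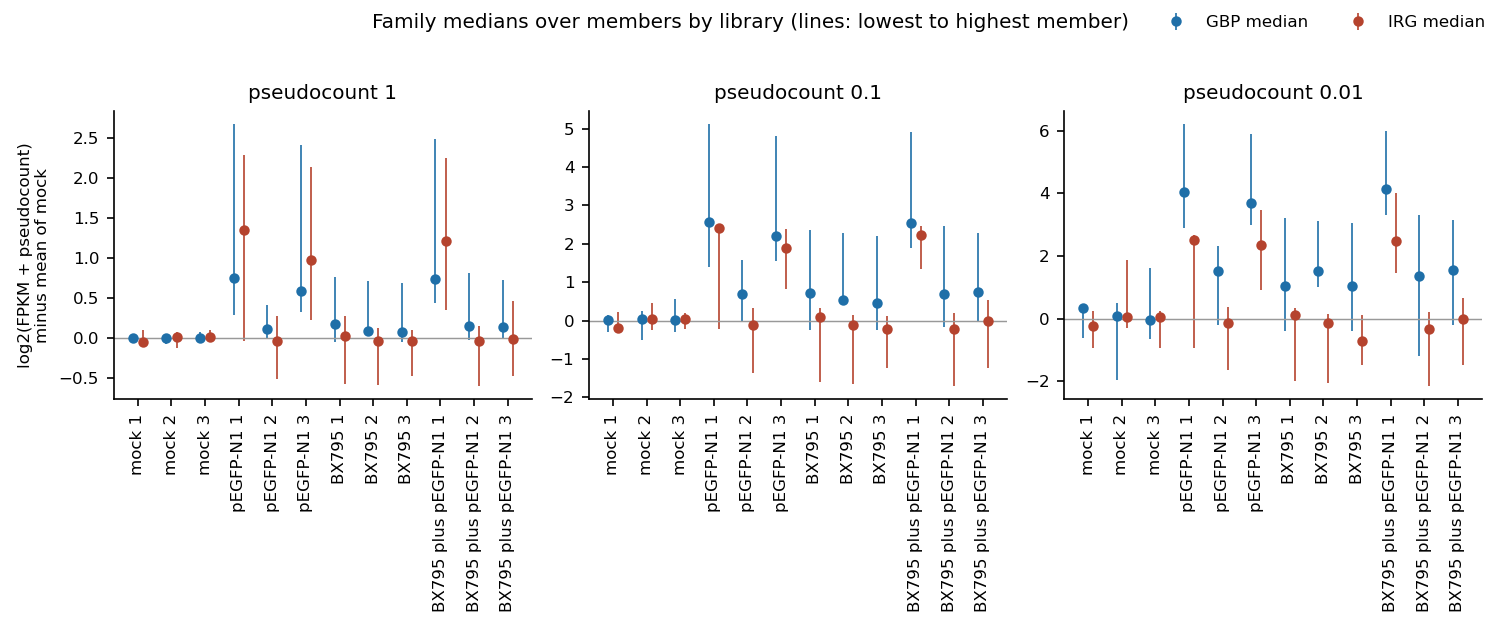
Median over the GBP members (blue, 4 genes) and IRG members (red, 5 genes) of the log2(FPKM + pseudocount) difference from the mean of mock in each library, at pseudocounts of 1, 0.1 and 0.01 (panels), with lines from the lowest to the highest member. Both medians stand apart from 0 in the 3 high libraries, and the red median is above the blue one there at a pseudocount of 1 and below it at 0.01.

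In the comparison of BX795 with mock, which shares its mock libraries with the plasmid comparison, no tested member was called in the main fit. The members whose values did not overlap with mock lay in both directions. By limma 0 of the 5 tested members were called, against 0.0672% of tested genes, and 0 members had an unadjusted p under 0.05, against 8.45% of tested genes higher and 5.40% lower. The smallest adjusted p was 0.485, for Iigp1, whose log2 change was -0.54 (SE 0.362). A fit of these 6 libraries alone called Iigp1 (limma adjusted p = 0.00713), but that fit called 20.6% of all tested genes. With the libraries labelled pEGFP-N1 replicate 2 and BX795 plus pEGFP-N1 replicate 1 left out, Iigp1 was called lower, against 14.1% of all genes in either direction. Gm4951 was called there as well, with a log2 change of -0.63. The libraries were left out on their expression, and the spread in that fit is shared by all groups. Iigp1 had also passed the filter through its high libraries, so these calls are given with no p and nothing is read from them. The values of Iigp1 did not overlap between BX795 and mock, nor did those of Gm4951 (exact permutation p = 0.1 for each). In the lower direction that made 1 of 9 members against 10.4% of all genes, so nothing is read from the count. In the upward direction Gbp2, Gbp3 and Irgm1 did not overlap with mock, 3 of 9 members against 16.3% of all genes, and among the other family genes Gbp2b, Gbp6 and F830016B08Rik did not. For Irgm1 this meant 5.29 ± 0.428 against 4.58 ± 0.350 FPKM, and for Gbp3 0.237 ± 0.125 against 0.0733 ± 0.0289 FPKM. For Gbp2 it meant 0.797 ± 0.0503 against 0.0867 ± 0.0351 FPKM. In the fit without filter Gbp2 was called higher by 0.73 (SE 0.0928, limma adjusted p = 0.0374), and 0.0512% of genes were called there.

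With the plasmid, the inhibitor groups differed by less than their spread. In BX795 plus pEGFP-N1 against pEGFP-N1, 0 of the 5 tested members were called and 0% of all genes. At an unadjusted p under 0.05, 0 members passed, as did 78 genes that were higher and 88 that were lower. Gbp3 differed by -0.74 (SE 0.648), Irgm1 by -0.61 (SE 0.545) and Irgm2 by -0.51 (SE 0.389), each at a limma adjusted p of 0.959. The values overlapped for all 9 members. With pEGFP-N1 replicate 2 and BX795 plus pEGFP-N1 replicate 1 left out, the log2 differences ran from -2.28 for Gbp3 to -1.16 for Iigp1. All 5 members were then called lower and 18.1% of all genes were called in either direction, but the 2 libraries were chosen on expression and their removal leaves high against low libraries, so these calls too restate the choice. In BX795 plus pEGFP-N1 against BX795, again 0 members and 0% of genes were called (at an unadjusted p under 0.05, 0 members, 204 genes higher and 375 lower), and Gbp3 differed by 0.81 (SE 0.648, adjusted p = 0.631). The interaction test, which sets the plasmid effect without BX795 against that with it, called 0 members and 0% of genes, and at an unadjusted p under 0.05 it passed 0 members, 250 genes above 0 and 157 below (Gbp3 0.94, SE 0.916, adjusted p = 0.849). For Iigp1 the interaction was -0.21 and turned to 0.17 without pEGFP-N1 replicate 2, 0.24 without BX795 plus pEGFP-N1 replicate 1 and 0.62 without both. With both libraries left out it called Gbp3, Igtp, Irgm1 and Irgm2 and 1.27% of genes, with the same limit, and each group with plasmid then held 2 libraries, in the inhibitor group replicates 2 and 3, of which replicate 3 stood apart.

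The genes through which interferon reaches these families were measured in the same libraries. Of 15 tested genes of interferon signalling 1 was called higher with pEGFP-N1 against mock, where 0.0672% of all tested genes were called, and 12 differed from mock by more than 0, as did 49.1% of all tested genes. That gene was Irf1, a transcription factor of GBP and IRG genes, at 12.7 to 14.9 FPKM in mock and 20.2 to 28.7 FPKM in all other libraries, higher by 0.91 with plasmid (SE 0.123, limma adjusted p = 0.0265). Over the 12 fits that leave out 1 library, its limma adjusted p ran from 0.00786 to 0.242 and its log2 change from 0.85 to 1.01. The call was lost in 8 of the 12: without any 1 mock library, pEGFP-N1 replicate 1 or 3, BX795 replicate 2 or 3, or BX795 plus pEGFP-N1 replicate 2. Irf1 was thus above mock in each of the 9 libraries, as Gbp2 and Gbp2b were. Stat2 and Irf9, whose products act together at the ISRE, were high in the 3 libraries where Gbp3 and the regulatory IRGs were, Stat2 at 19.5 to 21.1 FPKM against 5.12 to 8.05 elsewhere and Irf9 at 7.42 to 7.85 against 2.55 to 3.90. Usp18, a negative regulator of the interferon receptor, was at 3.47 to 3.93 FPKM in them and at or under 0.62 elsewhere. Stat2 differed by 1.25 (SE 0.398, adjusted p = 0.699) and Usp18 by 0.99 (SE 0.537, adjusted p = 1.0) with plasmid. Ifnb1, the gene for interferon beta, was at or under 0.16 FPKM in all libraries.

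Among genes whose products work with GBPs and IRGs none was called, as for all but 0.0672% of tested genes, so nothing is read from these counts. Of 13 tested genes that take part in vacuole targeting, such as the ATG5 and GABARAP conjugation machinery, 0 were called with pEGFP-N1 and their median difference was 0.0142. Trim21, a cytosolic antibody receptor and ubiquitin ligase, was the exception in size, at 3.47 to 4.26 FPKM in the 3 high libraries and 0.59 to 1.06 FPKM elsewhere (difference 1.06, SE 0.385, limma adjusted p = 0.897). Of the 3 tested inflammasome genes, Casp1, Casp4 and Gsdmd, and of the 5 tested genes of lipid anchoring, such as the farnesyltransferase subunits Fnta and Fntb, 0 were called. Pycard and Nlrp3 were at or under 0.18 FPKM.

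The tested genes outside both families whose course over the 12 libraries lay closest to the family medians were named by the root mean square difference between courses, each taken as log2(FPKM + 1) minus its own mean in mock, so the measure compares changes and not levels. For the GBP median they were Unc13d, Capn6, Mfsd12, Mettl21a and Tshz1, at 0.0823 to 0.110. For the IRG median they were Il33, Trim26, Zbtb3, Trim30a and Sp110, at 0.0971 to 0.149. Il33, an alarmin cytokine, was at 1.71, 1.36 and 1.89 FPKM in the 3 high libraries and at or under 0.23 FPKM elsewhere. Trim26, a ubiquitin ligase, was at 30.4 to 31.4 FPKM against 12.6 to 15.1 FPKM. Of the tested genes next to the clusters 0 were called, as for all but 0.0672% of tested genes, so only their values are given. For the 2 genes on each side of each cluster, and for Psme2b within 1 of them, the difference between pEGFP-N1 and mock ran from -0.17 (Tspan5) to 0.16 (Zfp672), each at a limma adjusted p of 1.0.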

How the data were processed

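The authors sequenced 12 libraries on a BGISEQ-500, aligned the reads with Bowtie2 2.2.5 to GRCm38.p5 and estimated expression with RSEM. The deposited values are FPKM rounded to 2 decimals, by Entrez identifier, and 17450 of 17571 identifiers had a RefSeq symbol. Python 3.11.15 (numpy 2.4.6, pandas 2.3.3, scipy 1.17.1) and R 4.3.3 with limma 3.58.1 were used. Log2(FPKM + 1) was fitted with 4 group means, contrasts and moderation with a trend. The fit was tested on simulated data. Of 66 pairs of libraries 0 were identical. Low values were not whole multiples of 1 read (26.8% of 1321 within 0.1), so count tests were not run. Promoters were from RefSeq (GRCm38.p6), gene spans and transcripts from GENCODE and RefSeq annotation of GRCm38. Members and lists were chosen with earlier results of these data known. Named genes were the members, all measured family genes, up to 4 of each other list by size of change, the 5 most alike and the cluster neighbours, and marker genes and others named for a count or a range were chosen after their values were seen. Alternatives were pseudocounts, filters, scalings, limma without the trend, the replicate number as a block, single groups and left-out libraries. Fits without a filter together with a pseudocount of 0.1 or with left-out libraries, and smaller pseudocounts without pEGFP-N1 replicate 2, were added after seeing the data.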

Additional observations from a re-analysis of the deposited data

How the results depend on the processing

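The number of members called depended on the filter and on the libraries labelled pEGFP-N1 replicate 2 and BX795 plus pEGFP-N1 replicate 1, and the cause was not tested. With both left out, 5, 5, 1 and 4 of 5 members were called in the plasmid comparison, in both agents against plasmid, in BX795 against mock and in the difference of plasmid effects, and 3.76%, 18.1%, 14.1% and 1.27% of all tested genes. With no filter as well, 8, 7, 2 and 6 of 9 were called, and 1.95%, 7.91%, 5.64% and 0.814% of all genes. The members counted there had mostly passed through the high libraries or stood high in them, so these counts restate the choice of libraries. With no filter alone, 1 (Gbp2) was called in BX795 against mock, and 1 in each of BX795 and plasmid against mock with a pseudocount of 0.1 or without pEGFP-N1 replicate 2, where 0.0455% to 0.0569% of all genes were called. A fit of only the groups compared called 1 (Iigp1) and 20.6% of all genes in BX795 against mock. Leaving out any single library with the filter and a pseudocount of 1 called 0 members in all 5 comparisons, whereas a pseudocount of 0.01 without pEGFP-N1 replicate 2 called Gbp3 and 0.25% of all genes, a call that restates the choice of libraries. The replicate block called 0 members in all 5 comparisons and left 4 members, and 3.03% of tested genes, higher at an unadjusted p under 0.05 in the plasmid comparison, so it changed no call. The libraries share only a number, since 6 of 18 same-numbered pairs had a correlation of deviations over 0.1 and 6 of 12 libraries correlated best with their own number. The members higher at an unadjusted p under 0.05 with plasmid numbered 0 to 4 when single libraries were left out (0 without pEGFP-N1 replicate 1 or 3, 2 without any 1 mock library, beside 1.64% to 5.67% of tested genes), 1 where genes had to reach 5 FPKM on average (Irgm1 alone was tested, beside 1.97%), and with no filter 7 without pEGFP-N1 replicate 2 (beside 5.24%) and 8 without both libraries (beside 6.76%). The median plasmid difference ran from 0.40 to 0.67 for GBP and from 0.54 to 1.17 for IRG members over left-out libraries. It was 1.85 and 1.54 with a pseudocount of 0.1, 2.93 and 1.71 with 0.01, and without pEGFP-N1 replicate 2 it was 2.39 and 2.15, then 3.86 and 2.38. After rescaling to TPM it was 0.84 and 1.09. In mock the GBP median was 0.107 and the IRG median 0.867 after rescaling to TPM, and 1.23 for IRG with the mean in place of the median. Differences that were not called changed sign over left-out libraries or settings. Among members under the filter they included Gbp7 in both agents against BX795 (-0.035 to 0.31), Gbp9 in both agents against plasmid (-0.21 to 0.018) and in BX795 against mock (-0.04 to 0.041), and Tgtp2 with plasmid (-0.028 to 0.10) and in both agents against plasmid (-0.073 to 0.14). Among tested members these were Igtp in BX795 against mock (-0.088 to 0.054 over left-out libraries, 0.013 without mock replicate 2), Irgm2 there (-0.034 to 0.043, -0.0042 without BX795 replicate 1 or 3, -0.042 with quantile normalization), Irgm2 in both agents against BX795 (-0.075 to 0.61, the lowest without BX795 plus pEGFP-N1 replicate 1) Iigp1 with plasmid (-0.029 to 0.63, the lowest without pEGFP-N1 replicate 1) and Iigp1 in the difference of plasmid effects (-0.21, against 0.62 without both libraries). Gbp9 and Tgtp2 did so there too.

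FPKM holds no read totals, so no counting interval is given, and the number of reads behind members under 0.1 FPKM is unknown. With 3 libraries a group an exact permutation test cannot go below p = 0.1. Fits without a filter include genes with no spread between libraries.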
